A study of Rattus norvegicus with 12 samples.

Results

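Keratins 7, 8, 18, 19 and 14 (Krt7, Krt8, Krt18, Krt19, Krt14) and uroplakin 1b (Upk1b) are genes of the epithelium that lines ducts and the urinary tract. They were taken as the probe sets whose only gene symbol in the platform annotation is one of these 6 names, 6 of the 14217 genes with a symbol of their own on the array. Each gene had 1 probe set, and all 6 passed the filter on low signals. RNA of rat kidney was hybridised to 12 Affymetrix arrays: 3 of embryonic day 13 kidney (E13), 4 of embryonic day 18 kidney (E18), 3 of kidney 4 weeks after birth (Wk4) and 2 of recombined tissue. Recombined tissue is a culture of 6 days in which ureteric buds (UBs) that had been formed in vitro and had not branched were joined with metanephric mesenchyme (MM), whereas embryonic kidneys were processed directly after dissection. No group carried a genotype or a drug in the labels, and no strain, sex or pooling is stated. The study asked whether the recombined tissue follows the course of the kidney in vivo and took a 3-fold difference as its measure. Whether replicates are separate litters, animals or cultures is not in the labels, so p-values measure the spread between these arrays, which may be technical.

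Keratins are the intermediate filament proteins of epithelial cells, and each filament is built from pairs of a type II and a type I chain. Krt8 and Krt7 are type II chains and Krt18 and Krt19 type I chains of simple epithelia, and in the kidney they are known from the ureteric bud and its derivatives, the collecting ducts and the lining of the pelvis and ureter. Krt14 is a type I chain of basal cells of stratified epithelia and urothelium. Upk1b is a tetraspanin that pairs with uroplakin 3 proteins in the plaques on the surface of the urothelium, and it is also made by other epithelia, mesothelium among them.

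RefSeq promoters of assembly GRCr8 were matched by symbol for 3 of the 6 genes, Krt8, Krt18 and Upk1b, and are shown because Krt8 and Krt18 are neighbouring genes on opposite strands whose signals moved unequally and because Upk1b was the gene that stood out in the recombined tissue. Each window runs 5′ to 3′ along the gene from 250 bases before the RefSeq start to 50 bases after it: chr7:135010290-135010589 on the minus strand for Krt8, chr7:135035918-135036217 on the plus strand for Krt18, and chr11:75459131-75459430 on the plus strand for Upk1b. Capitals mark matches on either strand to any of 5 motifs searched. The TATA box was searched as TATAAA and the GC box as GGGCGG. The CCAAT box was searched as its name spells it, the site of AP-1 factors as TGANTCA, and that of Grainyhead factors as AACCGGTT.
Krt8: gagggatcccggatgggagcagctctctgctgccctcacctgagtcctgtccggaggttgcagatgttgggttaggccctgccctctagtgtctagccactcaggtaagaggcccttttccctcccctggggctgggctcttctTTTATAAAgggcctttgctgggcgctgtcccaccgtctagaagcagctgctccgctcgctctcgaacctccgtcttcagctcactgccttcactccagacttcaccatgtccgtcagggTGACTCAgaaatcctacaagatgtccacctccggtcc
Krt18: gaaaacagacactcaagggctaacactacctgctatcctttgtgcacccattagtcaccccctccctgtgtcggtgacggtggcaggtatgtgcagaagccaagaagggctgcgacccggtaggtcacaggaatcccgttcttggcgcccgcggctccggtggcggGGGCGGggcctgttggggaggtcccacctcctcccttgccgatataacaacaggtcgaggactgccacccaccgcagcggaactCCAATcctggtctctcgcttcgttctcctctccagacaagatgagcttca
Upk1b: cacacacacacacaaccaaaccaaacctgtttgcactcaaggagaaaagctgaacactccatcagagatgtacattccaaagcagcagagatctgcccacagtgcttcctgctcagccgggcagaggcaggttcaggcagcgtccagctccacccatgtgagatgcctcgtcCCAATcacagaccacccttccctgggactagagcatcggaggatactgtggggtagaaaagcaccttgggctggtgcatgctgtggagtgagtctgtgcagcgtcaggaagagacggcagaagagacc

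The Krt8 window held TATAAA once on each strand, in the overlapping letters TTTATAAA, with the plus-strand match starting 104 bases before the start, and TGACTCA from base 14 after it. The Krt18 window held GGGCGG from 84 bases before the start and CCAAT at the first base after it. The Upk1b window held CCAAT from 78 bases before the start. Of 33469 RefSeq promoter windows of this length, 14.22% held TATAAA, 33.06% GGGCGG, 37.49% CCAAT, 7.33% TGANTCA and 0.17% AACCGGTT, and the last was in none of the 3 windows. These matches describe the letters only.

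Values below are deposited probe set signals on a linear scale. Differences are in units of log2(signal + 271), first group minus second, with a standard error from a limma fit over all 12 arrays, and they understate the change of dim genes. Rose and fell are used for an adjusted p under 0.05 together with a change of at least 3-fold. Signals of different probe sets cannot be set against each other. In whole tissue, fewer cells of a type and less RNA per cell cannot be told apart. Array medians lay between 799 and 1020. The defining epithelial markers Cdh1 and Epcam were above the 40th percentile on all 12 arrays. The arrays of E13 and E18 were split into a pair of sets by the sign of the main axis of their residuals. This put E13 replicate 1 with E18 replicates 1 to 3, and E13 replicates 2 and 3 with E18 replicate 4. Residuals cancel within a stage, so by construction either set holds arrays of both stages. The split alone is therefore no sign of a batch, and no label names one.

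Krt8 rose from E13 to E18 and was higher still at 4 weeks, and in the recombined tissue it lay at the E13 level. Its signal at E13 was 1692, 1814 and 1685 in replicates 1 to 3, and at E18 it was 8555, 9338, 8234 and 7364 in replicates 1 to 4. At 4 weeks it was 18121, 17918 and 17312, and in the recombined tissue 1654 and 1826. Each E18 array was above every E13 array and each Wk4 array above every E18 array, while the recombined arrays lay just outside the E13 range on either side, so those groups overlapped. The difference from E13 was 2.11 ± 0.11 at E18 (4.31-fold, adjusted p = 9.3e-09, limma with Benjamini-Hochberg adjustment) and 3.17 ± 0.12 at 4 weeks (9.02-fold, adjusted p = 1.42e-11). The step from E18 to 4 weeks was 1.07 ± 0.11 (2.10-fold, adjusted p = 9.57e-07), under the 3-fold limit. The recombined tissue differed from E13 by 0.01 ± 0.13, with a 95% interval from -0.27 to 0.28, and the sign of so small a difference turned with quantile normalization (-0.11) and with median centring (-0.19). Against E18 it fell by 2.10 ± 0.12 and against Wk4 by 3.17 ± 0.13 on the log2 scale.

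Krt7, the other type II chain, had the largest rise among the 6 genes in the kidney. It was under the 40th percentile of signals on all 3 E13 arrays, at 55.9, 419.8 and 356. It stood at 4892, 4823, 4928 and 4325 at E18 and at 17213, 16572 and 16959 at 4 weeks. In the recombined tissue it was 1217 and 1135. The 4 groups did not overlap, in the order E13, recombined, E18 and Wk4, and relative to its mean Krt7 was most scattered at E13 (SD 194, mean 277). Krt7 rose by 3.26 ± 0.20 from E13 to E18 (9.60-fold, adjusted p = 5.2e-08), and by 1.78 ± 0.20 from E18 to 4 weeks (3.43-fold, adjusted p = 3.15e-06). The recombined tissue lay 1.47 ± 0.24 above E13 (2.77-fold, adjusted p = 0.000345), just under the 3-fold limit, and past it without E13 replicate 2 (1.68) or E13 replicate 3 (1.61) and with no pseudocount (2.53). Against E18 the recombined tissue fell by 1.79 ± 0.23 (3.46-fold lower, adjusted p = 4.8e-05), a call lost with a pseudocount 4 times as large (-1.37).

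Krt18, the usual partner of Krt8, had its highest signals at E18. It measured 2979, 3656 and 2874 at E13 and 6871, 9574, 7016 and 6713 at E18. At 4 weeks it measured 3045, 4862 and 3664, and in the recombined tissue 1945 and 3187. All 4 E18 arrays lay above every other array, with replicate 2 well above the other 3, while the E13, Wk4 and recombined arrays overlapped. None of its differences reached 3-fold. E18 was above E13 by 1.18 ± 0.19 (2.26-fold, adjusted p = 0.000431), and Wk4 minus E18 was -0.93 ± 0.19 (1.90-fold, adjusted p = 0.00072). The difference of Wk4 from E13 was 0.25 ± 0.20 (adjusted p = 0.31), with a 95% interval from -0.19 to 0.68. Recombined minus E18 was -1.48 ± 0.21 (2.79-fold, adjusted p = 0.000135), and it passed 3-fold without recombined replicate 2 (-1.80) and with median centring (-1.59).

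Krt19, a small type I chain of ductal epithelia, also rose from E13 to E18. Its signals were 1035, 712 and 1098 at E13 and 3654, 4213, 3658 and 2687 at E18. They were 3892, 6297 and 5249.5 at 4 weeks and 1146 and 1763 in the recombined tissue. The E18 and Wk4 arrays overlapped and lay above all others, and both recombined arrays were above the E13 arrays, the lower one by little. The difference of E18 from E13 was 1.65 ± 0.20 (3.13-fold, adjusted p = 3.76e-05), close to the limit. It was under 3-fold without E13 replicate 2 (1.5) or E18 replicate 2 (1.57), and with a pseudocount 4 times as large (1.185). The same held with quantile normalization or median centring (1.56 each) or with the set of embryonic arrays as a covariate (1.51). Wk4 stood 2.14 ± 0.21 above E13 (4.41-fold, adjusted p = 6.2e-07) and 0.49 ± 0.20 above E18 (adjusted p = 0.0499, under 3-fold). The recombined tissue fell by 1.65 ± 0.24 against Wk4 (adjusted p = 4.19e-05). That difference was under 3-fold without Wk4 replicate 2 (-1.50) or recombined replicate 1 (-1.39) and with a pseudocount 4 times as large (-1.29). Against E18 it was -1.16 ± 0.23 (2.23-fold, adjusted p = 0.00159), and against E13 it was 0.49 ± 0.24 (adjusted p = 0.14).

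**Figure D1:**
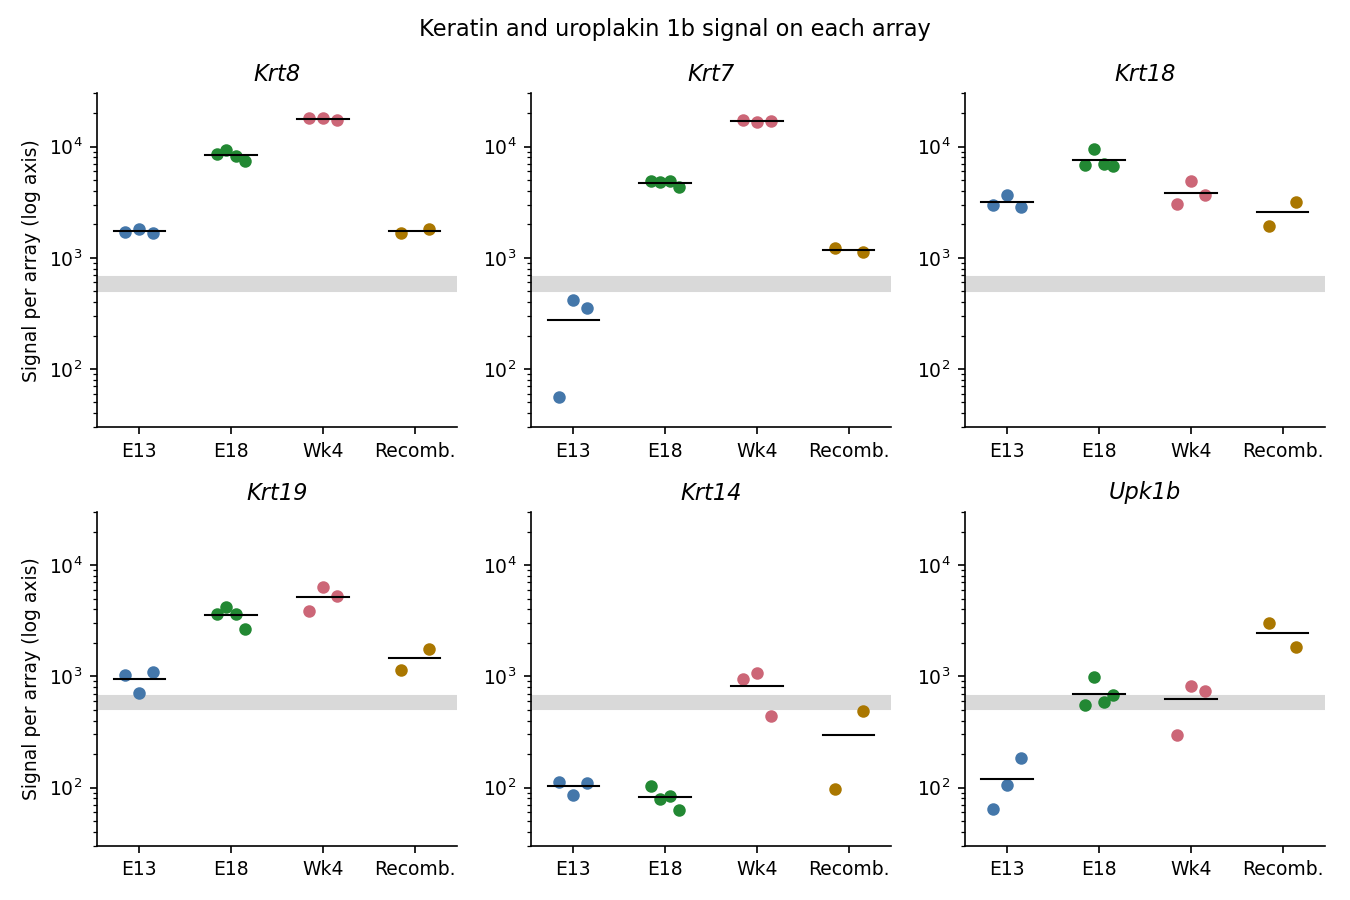
Signal of each of the 6 genes on each array (points, log axis), with the group mean as a bar, for 3 E13, 4 E18, 3 Wk4 and 2 recombined arrays; the grey band spans the arrays' 40th percentiles, 503 to 671. Krt8 and Krt7 climb through the 3 kidney stages, Krt18 is highest at E18, and Upk1b is highest in recombined tissue. Krt14 is above the band on 2 of the 3 Wk4 arrays and on no other array.

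Within an array, Krt8 gained on Krt18 and Krt7 on Krt19 from stage to stage in the kidney. These pairs were chosen after the values were seen, so the numbers are a description. Only changes can be read from them, since the zero point of such a ratio depends on the probes. For Krt8 minus Krt18 on the log2 scale the mean moved from -0.78 ± 0.12 (SD, n = 3) at E13 to 0.16 ± 0.15 (n = 4) at E18 and 2.15 ± 0.32 (n = 3) at 4 weeks. For Krt7 minus Krt19 it moved from -1.21 ± 0.75 to 0.40 ± 0.19 and 1.69 ± 0.36 over the same arrays. The 3 stages did not overlap for either pair. The steps of Krt8 against Krt18 were 0.93 from E13 to E18 and 2.0 from E18 to 4 weeks, and those of Krt7 against Krt19 were 1.62 and 1.29. In the recombined tissue the values were -0.20 and -0.72 for Krt8 against Krt18, the second within the E13 range. They were 0.07 and -0.53 for Krt7 against Krt19, the second again within the E13 range.

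**Figure D2:**
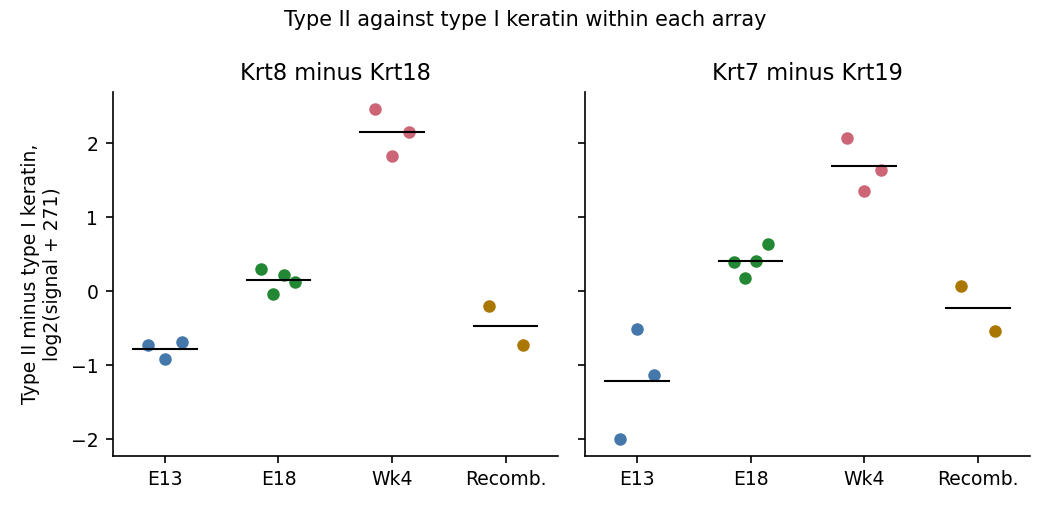
Difference between a type II and a type I keratin within each array on the log2(signal + 271) scale, with points for arrays and bars for group means (n = 3, 4 and 3 for the stages in order and 2 for recombined tissue). Both pairs move up from E13 over E18 to Wk4 without overlap; the height of zero has no meaning, because probe sets differ in brightness.

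Krt14, the basal cell keratin, was under the 40th percentile on all E13 and E18 arrays, so its levels there had no order. It read 113, 86.0 and 111 at E13 and 104, 78.2, 83.9 and 62.8 at E18. At 4 weeks it read 947, 1081 and 436, and only the first 2 of these were above the 40th percentile of their arrays. In the recombined tissue it read 97.0 and 491, both under the 40th percentile. Krt14 passed the filter through those 2 Wk4 arrays alone, so that it had to be high there, and the Wk4 arrays were above every embryonic array. The Wk4 difference was 1.58 ± 0.28 from E18 (2.98-fold, adjusted p = 0.000269) and 1.49 ± 0.30 from E13 (2.81-fold, adjusted p = 0.000619), both just under 3-fold. Both passed 3-fold without Wk4 replicate 3 (1.86 and 1.78) and with no pseudocount (3.24 and 2.90). Against E18 this also held without E18 replicate 1 (1.61), with quantile normalization (1.59) and with median centring (1.63). The recombined arrays differed too much for a direction, at 0.50 ± 0.34 from E13 (adjusted p = 0.30), and without replicate 2 the difference was -0.02.

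Other keratins of basal and stratified epithelia were read beside Krt14. Of 9 such genes on the array 5 were tested, and limma called 0 in any of the 6 comparisons. At an unadjusted p under 0.05 there were between 0 and 2 of the 5 per comparison. Krt5, the usual type II partner of Krt14, read 699, 522 and 407 at 4 weeks against 211 to 559 at E18, a difference of 0.26 ± 0.23 (adjusted p = 0.37). Krt17, another type I chain of basal cells, differed by 0.17 ± 0.25 over the same comparison (adjusted p = 0.60). Krt4 and Krt10, also not called, went opposite ways. Krt4 was 379 to 609 at 4 weeks against 150 to 563 at E18, above the 40th percentile on only 2 arrays, both Wk4. Krt10 was 959 to 1158 at 4 weeks against 1420 to 1718 at E18. Tp63, the transcription factor of basal cells, was below the 40th percentile on all 12 arrays, between 58.8 and 440.0, and was not tested.

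Upk1b was the one gene of the 6 with its highest signals in the recombined tissue. It was under the 40th percentile on all E13 arrays, at 63.5, 105 and 186. At E18 it was 552, 978, 589 and 679.9, and at 4 weeks 295, 824 and 740.3. In the recombined tissue it was 3043 and 1848. Both recombined arrays were above all 10 kidney arrays, the E18 and Wk4 arrays overlapped, and every E18 and Wk4 array was above every E13 array. Upk1b rose by 2.78 ± 0.31 from E13 to the recombined tissue (6.87-fold, adjusted p = 1.36e-05), a call lost with a pseudocount 4 times as large (1.53). It was 1.63 ± 0.31 above Wk4 (3.10-fold, adjusted p = 0.000466) and 1.47 ± 0.29 above E18 (2.77-fold, adjusted p = 0.00184), either side of the 3-fold limit. The call against Wk4 was lost without Wk4 replicate 1 (1.33) or recombined replicate 1 (1.31), and with quantile normalization (1.55), median centring (1.47) or a pseudocount 4 times as large (1.04). The difference from E18 passed 3-fold without E18 replicate 2 (1.60) or recombined replicate 2 (1.79). In the kidney it was 1.31 ± 0.26 higher at E18 than at E13 (2.48-fold, adjusted p = 0.00229) and -0.16 ± 0.26 from E18 to 4 weeks (adjusted p = 0.62), the latter turning to 0.14 without Wk4 replicate 1. Wk4 stood 1.15 ± 0.28 above E13. With no pseudocount Upk1b passed 3-fold for E18 against E13 (2.67), Wk4 against E13 (2.39) and recombined tissue against E18 (1.80).

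The other plaque proteins of the urothelium had low signals in the recombined tissue, as they had at E13. Upk1a, the second tetraspanin uroplakin, was 180.4 and 19.9 in recombined tissue, Upk2, the partner of Upk1a, 24.9 and 118, and Upk3a, the partner of Upk1b, 480.0 and 319. All of these were under the 40th percentile of their arrays. Upk3bl1, a relative of uroplakin 3, was 288 and 584. From E13 to recombined tissue these 4 genes differed by -0.03 ± 0.35, -0.07 ± 0.34, 0.37 ± 0.28 and 0.24 ± 0.29, with adjusted p between 0.36 and 0.97. In the kidney Upk1a read 14.6 to 181 at E13, 162 to 513 at E18 and 562 to 1094.5 at 4 weeks. Upk2 read 30.2 to 175, 78.4 to 325 and 287 to 790 at the same stages. Both were under the 40th percentile on all E13 and E18 arrays. Each passed the filter through 2 Wk4 arrays alone, so it had to be high at 4 weeks. Upk3a was 1.04 ± 0.24 above E13 at E18 (adjusted p = 0.00626), and it was not called. Upk3bl1 was 1.39 ± 0.24 above E13 at E18, and from E13 to 4 weeks it rose by 1.60 ± 0.26. That call was lost without E13 replicate 2 (1.49) or Wk4 replicate 2 (1.36) and with median centring (1.57). It was also lost with a pseudocount 4 times as large (0.895) and with the embryonic array set as a covariate (1.54). Of the 5 genes of this list on the array, the fifth was Psca, a surface protein of urothelium and other epithelia. Psca lay between 42.9 and 121 on all E13 and E18 arrays, at 2773, 5012 and 2805 at 4 weeks, and at 3551 and 1818 in recombined tissue. It rose by 3.15 ± 0.29 from E13 to recombined tissue (adjusted p = 2.31e-06), by 3.36 from E18 to 4 weeks, and so was high in the same 2 recombined arrays as Upk1b and, unlike it, also at 4 weeks.

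**Figure D3:**
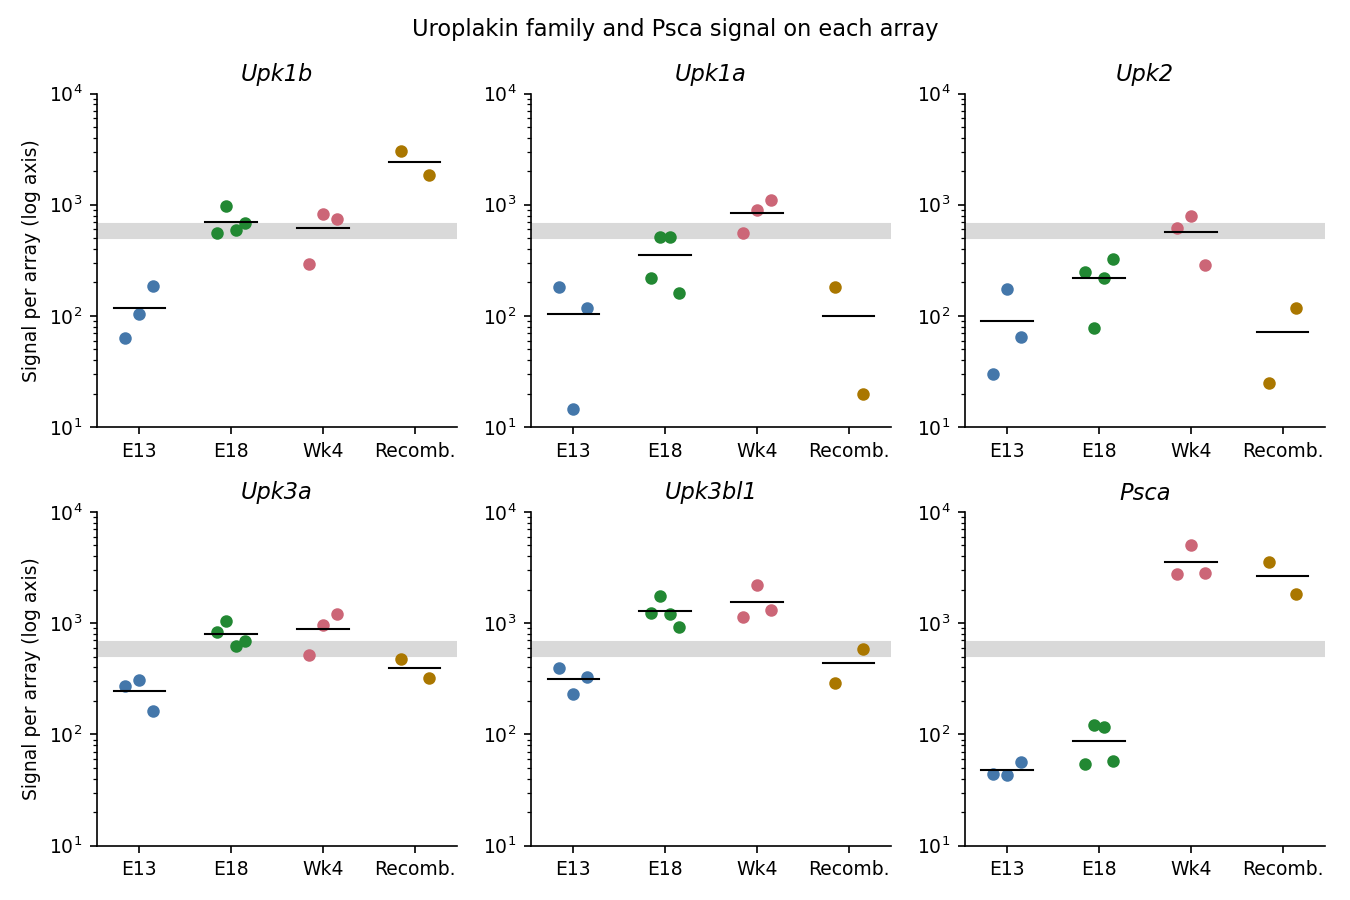
Signal of Upk1b, 4 other uroplakin genes and Psca on each array (points, log axis) with group means as bars, for 3 E13, 4 E18, 3 Wk4 and 2 recombined arrays; the grey band spans the arrays' 40th percentiles. Upk1b and Psca are above the band on both recombined arrays, while Upk1a, Upk2, Upk3a and Upk3bl1 are within it or below.

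Because Upk1b is also made by mesothelium, the 5 measured mesothelial markers were read beside it. From E13 to recombined tissue limma called 0 of the 5 (5 at an unadjusted p under 0.05), and they went both ways. Msln, Lrrn4 and Bnc1 differed by 1.44 ± 0.26, 1.11 ± 0.42 and 0.86 ± 0.36, and Gpm6a and Wt1 by -1.17 ± 0.33 and -0.73 ± 0.18. Against E18 1 of 5 rose, Bnc1, where 2.73% of all tested probe sets were called higher. Bnc1, a zinc finger protein of mesothelium and basal epithelium, was 786 and 1080.5 in recombined tissue against 83.7 to 155 at E18, a difference of 1.60 ± 0.34 (adjusted p = 0.00277). It was under 3-fold without E18 replicate 2 (1.55) or recombined replicate 2 (1.42). The same held with median centring (1.49), quantile normalization (1.455) and a pseudocount 4 times as large (0.74). At E13 Bnc1 was 479.8, 94.1 and 774. Only E13 replicate 3 and both recombined arrays were above the 40th percentile for Bnc1. Without the recombined arrays it would not have passed the filter, so its rise is a description only. Mesothelin (Msln) was 1351 and 1699.6 in recombined tissue, 291, 378 and 521 at E13 and 1317 to 2632 at E18. The summed signal of the 5 markers was 15540 to 21070 in recombined tissue, 21180 to 30370 at E13, 19330 to 22930 at E18 and 9829 to 11570 at 4 weeks, and most of it in the embryonic kidneys and the recombined tissue came from Wt1, which nephron progenitors and podocytes also make. The part of these cells in the Upk1b result was not tested.

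Between E13 and E18, 3 of the 6 genes rose (Krt7, Krt8 and Krt19) and 0 fell, where 2.34% of the 22599 tested probe sets were called, 1.93% higher and 0.407% lower. For the 6 genes the median difference was 1.48, against -0.02 over all probe sets. Within either set of embryonic arrays, each E18 array had a higher signal than each E13 array for 5 of the 6 genes, all but Krt14; the same was so for 23.1% of all tested probe sets. From E18 to 4 weeks 1 of 6 rose, Krt7, where 11.2% of all probe sets were called, 5.76% higher and 5.43% lower. From E13 to 4 weeks 3 of 6 rose (Krt7, Krt8 and Krt19), where 17.9% were called, 9.39% higher and 8.46% lower. These comparisons share arrays and are not independent. Krt14 passed the filter only through its Wk4 arrays, so these counts describe the genes and support nothing further.

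Against E13, 1 of the 6 genes was called in recombined tissue, Upk1b, where 4.86% of all probe sets were called, 3.95% higher and 0.912% lower. For the 6 genes the median difference was 0.50. Against E18, 2 of 6 fell, Krt8 and Krt7, where 4.4% were called, 2.73% higher and 1.67% lower. For the 6 genes it was -1.32. Against Wk4, 3 fell (Krt8, Krt7 and Krt19) and Upk1b rose, where 15.2% were called, 7.88% higher and 7.32% lower. Without recombined replicate 2, 4 of the 6 differences from E18 were called. Without recombined replicate 1, 2 of the 6 differences from Wk4 were called, Krt8 and Krt7. The count against E13 was 1 without either recombined array.

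**Figure D4:**
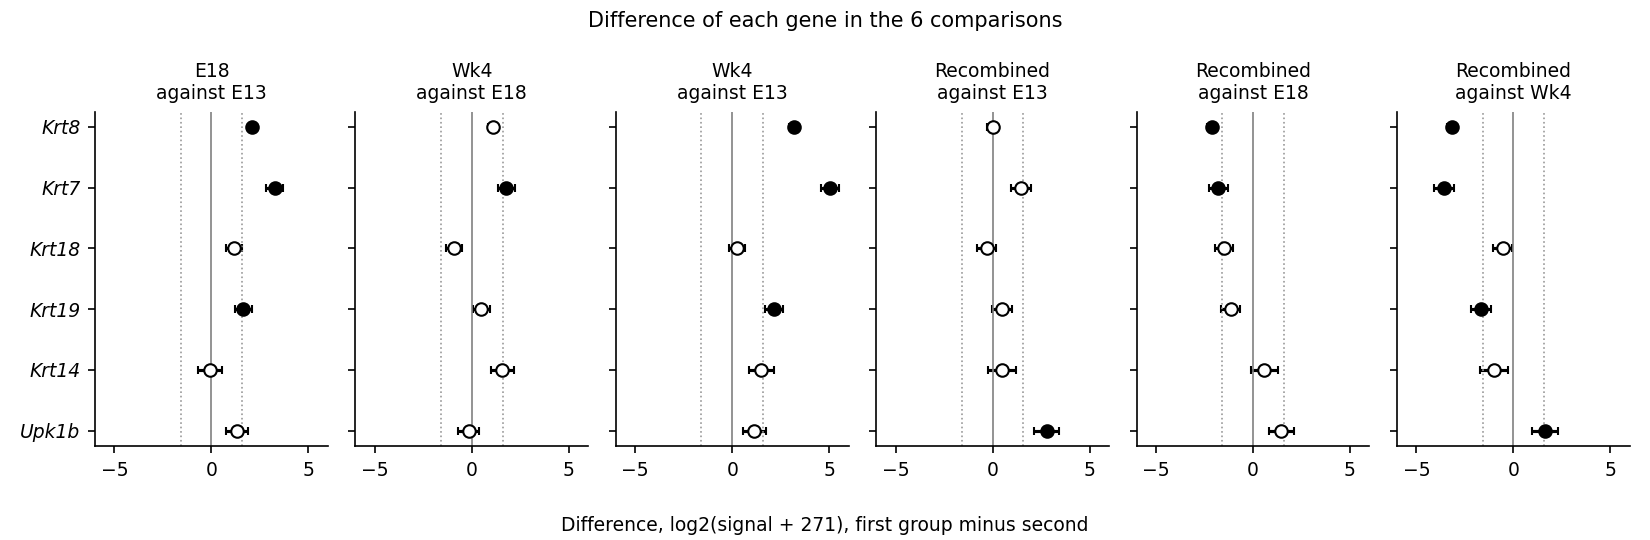
Difference of each gene (points) with its 95% interval in each of the 6 comparisons on the log2(signal + 271) scale; filled points have an adjusted p under 0.05 and at least 3-fold, and dotted lines mark 3-fold. Krt8 lies at 0.01 in recombined tissue against E13 and Upk1b at 2.78, whereas the 4 simple keratins are all left of zero against E18.

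Genes of the junctions of epithelial cells were read beside the keratins. Of all tested probe sets, 1.93% rose and 0.407% fell between E13 and E18, with a median difference of -0.02. Of 16 measured epithelial junction and surface genes, 6 rose and 0 fell, with a median of 1.41. Among them E-cadherin (Cdh1) was 2360.0 to 2805 at E13 and 10617 to 14758 at E18, a rise of 2.21 ± 0.18 (adjusted p = 7.11e-07). The tight junction proteins Cldn8 and Cldn7 rose by 2.34 ± 0.12 and 2.10 ± 0.45, the latter under 3-fold with the larger pseudocount (1.40). In recombined tissue against E13, 4.86% of all tested probe sets were called. limma called 0 of 16 in either direction there (7 at an unadjusted p under 0.05), with a median of -0.14. Cdh1 was 1686 and 3335 there (-0.13 ± 0.21), and Epcam, the epithelial adhesion molecule, was 3672 and 4872 against 6097 to 6674 at E13 (-0.56 ± 0.15, adjusted p = 0.00839). Against E18, 6 of 16 were lower in recombined tissue, where 1.67% of all tested probe sets were called lower. The summed signal of the 16 genes was 36560 to 39100 at E13, 106200 to 131200 at E18, 187400 to 211000 at 4 weeks and 28460 to 40210 in recombined tissue. Bright genes weigh most in such a sum. From E18 to 4 weeks 5.76% of all tested probe sets were called higher, with a median difference of -0.12. Of the 16 genes 2 rose and 0 fell, with a median of 0.18. Over that step Epcam went from 17263 to 23160 up to 61433 to 69009, while Cdh1 was lower at 4 weeks, at 8381 to 9598. The part of this epithelial signal in the keratin differences was not tested.

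Desmosomes are the junctions to which keratin filaments attach. Between E13 and E18, where 1.93% of all tested probe sets were called higher, 3 of 13 measured desmosome and linker genes rose and 0 fell. They were Dsp (1.80 ± 0.15) and Ppl (1.91 ± 0.20), plakins that tie keratin to the membrane, and the plaque protein Pkp2 (1.85 ± 0.23). With a pseudocount 4 times as large all 3 were under 3-fold (1.48, 1.22 and 0.98), and so was Pkp2 with the embryonic array set as a covariate (1.56). Perp, a membrane protein of desmosomes, rose by 2.50 from E18 to 4 weeks, from 1509 to 2299 up to 11290.0 to 12058. In the recombined tissue limma called 1 of 13 against E13, where 4.86% of all tested probe sets were called. It was the desmosomal cadherin Dsg2, which fell by 1.79 ± 0.26 (adjusted p = 0.00012), a call lost without recombined replicate 1 (-1.39). Against E18 Dsp fell by 2.37 ± 0.17 and Dsg2 by 1.84 ± 0.24, the latter again under 3-fold without recombined replicate 1 (-1.45). With the larger pseudocount Dsg2 was under 3-fold against E13 (-1.185) and against E18 (-1.222). Eppk1, a plakin that binds keratin, was called higher than at 4 weeks (2.09 ± 0.34), the reverse of Perp (-3.59 ± 0.19), Dsp (-2.82 ± 0.18) and Pkp2 (-2.69 ± 0.27). The call of Eppk1 was lost with the larger pseudocount (1.17).

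Of all tested probe sets, 1.93% were called higher between E13 and E18, with a median difference of -0.02. Of 20 measured genes of the ureteric bud and collecting duct, 8 rose and 0 fell, with a median of 1.21. They included the water channels Aqp2 (4.07 ± 0.37) and Aqp4 (3.18 ± 0.26) and the transcription factor Tfcp2l1 (3.29 ± 0.23). Elf5 was counted here and among those lower in recombined tissue against E18. It passed the filter through its E18 arrays alone, so it had to be high there. From E18 to 4 weeks 4 rose and 5 fell, where 5.76% of all tested probe sets were called higher and 5.43% lower. Those that rose included Aqp2 and the calcium binding protein Calb1, and those that fell included the tip genes Ret (-3.35) and Etv4 (-3.67). In recombined tissue against E13 1 of 20 rose, Hsd11b2, the enzyme that inactivates glucocorticoids in collecting duct cells (2.50 ± 0.17, adjusted p = 1.08e-07), and 0 fell. Over all tested probe sets 3.95% were called higher in that comparison and 0.912% lower. Against E18, where 1.67% of all tested probe sets were called lower, 9 of 20 were lower. Among them were Aqp2 (-3.93 ± 0.42) and Aqp3 (-3.04 ± 0.22), and Hsd11b2 was higher (2.69 ± 0.16).

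**Figure D5:**
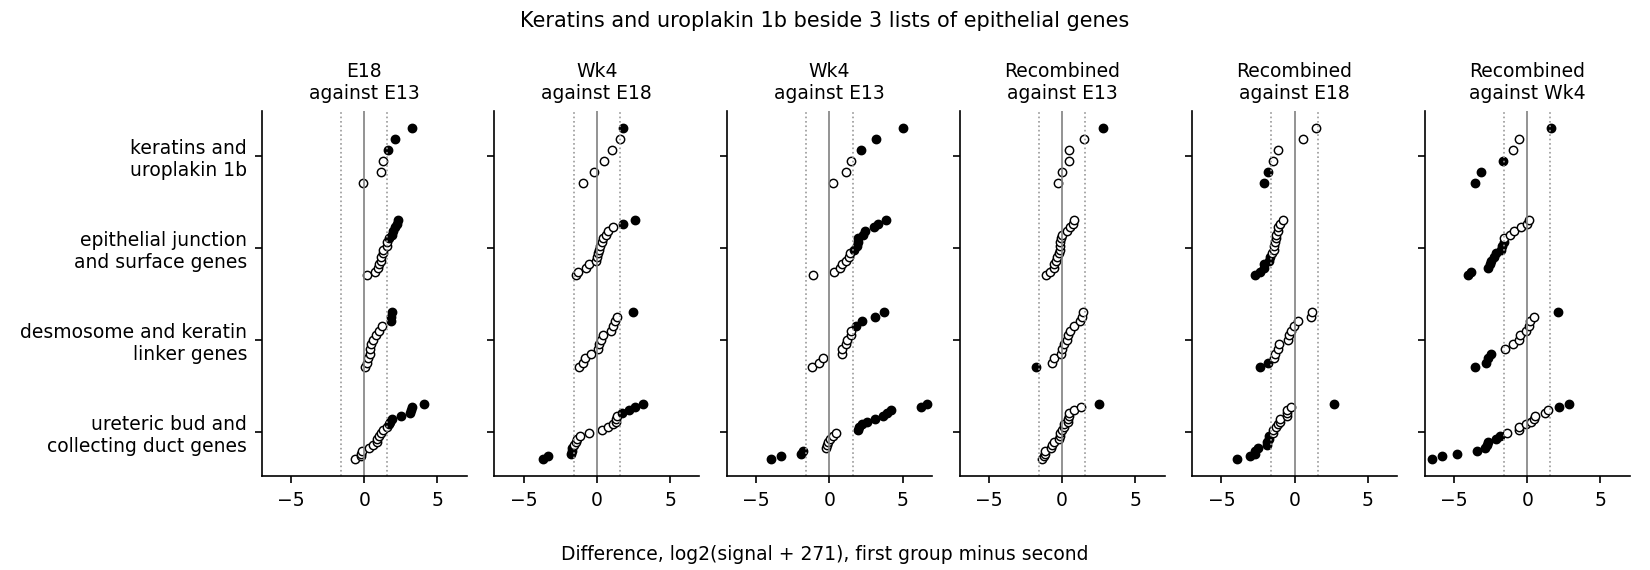
Difference of each gene (points) of the keratin and uroplakin 1b group (n = 6), the epithelial junction list (n = 16), the desmosome list (n = 13) and the ureteric bud and collecting duct list (n = 20) in each comparison, on the log2(signal + 271) scale; filled points were called and dotted lines mark 3-fold. Against E13 the recombined tissue has 0 called junction genes, and against E18 it has 6 called lower.

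The other keratins of simple epithelia on the array were Krt20 and Krt23. Krt20, a type I chain of umbrella cells and gut, was between 318 and 752 at E13, E18 and in recombined tissue, and at 4 weeks it read 23.7, 145 and 555. Krt23, another type I chain, was 715 to 824 on the E18 arrays, 204 to 453 at E13, 277 to 439.5 at 4 weeks and 70.4 and 369.9 in recombined tissue. All 4 E18 arrays lay above every other array, with differences of 0.81 ± 0.24 from E13 (adjusted p = 0.0276) and -0.79 ± 0.24 for Wk4 minus E18 (adjusted p = 0.0116), both under 3-fold. Krt23 was above the 40th percentile on those 4 E18 arrays only and passed the filter through them alone. It thus had to be high at E18. limma called neither Krt20 nor Krt23 in any of the 6 comparisons, and at an unadjusted p under 0.05 there were between 0 and 2 per comparison. Vimentin (Vim), the intermediate filament of mesenchyme, was 55348 to 79771 in the embryonic kidneys and the recombined tissue and 10400.1 to 13789 at 4 weeks, so it fell by 2.32 ± 0.12 from E18 to 4 weeks while Krt7 rose. Lamin A (Lmna), a nuclear filament, rose by 2.65 ± 0.18 from E13 to recombined tissue, and of 13 measured filament genes outside the keratins 3 rose and 1 fell there. Of all tested probe sets, 3.95% were called higher in that comparison and 0.912% lower.

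Among urothelial and epithelial transcription factors, 8 were tested. Elf5, a factor of the ureteric and mammary epithelium, rose by 1.79 ± 0.22 from E13 to E18, a call lost without E13 replicate 3 (1.57). It fell by 1.90 ± 0.25 in recombined tissue against E18. Elf5 was above the 40th percentile on its 4 E18 arrays only and passed the filter through them alone. It thus had to be high at E18, and both calls are a description only. Elf3 rose by 1.91 from E13 to 4 weeks. Tbx18, which marks the mesenchyme around the ureter, fell by 2.74 ± 0.16 from E13 to E18 and by 2.16 ± 0.19 from E13 to recombined tissue. With a pseudocount 4 times as large several of these calls were lost. They were Elf5 at E18 against E13 (1.01), Elf5 in recombined tissue against E18 (-1.06), Elf3 (1.26) and Tbx18 in recombined tissue (-1.58).

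The recombined tissue also differed in other cell types. Against E13, 3.95% of all tested probe sets were called higher in it and 0.912% lower. Leukocyte markers were called higher than at E13 in 9 of 9 tested genes. The summed signal of the 10 leukocyte genes on the array, tested or not, was 123100 to 219300 against 5279 to 8254 at E13. Stromal and myofibroblast markers were called higher in 8 of 11, with sums of 669700 to 778600 against 122500 to 169800, and endothelial markers lower in 3 of 7, with sums of 4614 to 12220 against 27160 to 36100. Krt8 lay at its E13 level and Upk1b above it on these same arrays, and the part of the other cell types in either value was not tested.

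Among 11914 other genes compared over the 12 arrays, the closest pattern to Krt8 was that of Tmem213 (Pearson r = 0.997), to Krt7 that of Rbm47 (0.995) and to Krt18 that of Ctse (0.969). Krt19 was closest to Upk3bl1 (0.979), Krt14 to Pbx4 (0.950) and Upk1b to Plcb4 (0.976). The next for Krt18 were Klhl14 (0.954) and Elf5 (0.947), and for Upk1b Inhbb (0.968) and Lox (0.967). Among the 6 genes, Krt8 and Krt7 had r = 0.959, Krt8 and Krt19 0.949, and Krt7 and Krt19 0.936, whereas Krt8 and Krt18 had 0.523. The r of Upk1b with the 5 keratins lay between -0.03 and 0.28. These are descriptions over 12 arrays that share 4 stage or tissue groups, so each r mostly compares 4 group levels.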

How the data were processed

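Total RNA was labelled as biotinylated cRNA for Affymetrix arrays, per the labels' protocols. The authors deposited a linear intensity for each probe set. GCOS made them, per the submitters' processing notes, and how it was set is not given in the sources used here. With the lowest and highest 2% of values left out, the mean signal was 2500 on each of the 12 arrays. The deposited values had thus already been scaled to a common mean. Of 31042 probe sets, besides 57 controls that were left out, 20826 had 1 gene symbol, 436 several and 9780 none. No further normalization was applied, and 271, which 25% of all values lie under, was added before taking log2. Probe sets above the 40th percentile of at least 2 arrays were kept (22599). All 12 arrays entered 1 limma 3.58.1 fit (R 4.3.3; lmFit, eBayes with trend, 8 residual degrees of freedom), with two-sided tests adjusted by Benjamini-Hochberg over all 22599. The steps were tested on simulated data. No 2 arrays held identical values.

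The 6 genes and the gene lists were chosen with earlier results of these data known. Named were the 6 genes, Krt5, Krt17, Krt20, Tp63, uroplakins, Cdh1, Epcam and Vim, up to 3 called genes per list, comparison and direction, and the genes most like each; other list genes were added after their values were seen. Alternatives were the pseudocount, quantile normalization, median centring, the filter, the variance trend, only the compared arrays, the embryonic array set, the replicate number as a block, each array left out in turn, and other thresholds. The number of arrays limits the precision.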

Additional observations from a re-analysis of the deposited data

Results flagged for a closer look

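The E18 group was the one group with at least 4 arrays, so single arrays far from their group were sought there only. Over 72 genes tested, 5 had an array whose gap to its nearest neighbour, as a share of the group's range, exceeded Dixon's 95% critical value; chance gives about 1 in 20. Krt18 was flagged for E18 replicate 2, at 9574 against 6713 to 7016 in the others (share 0.894), and Krt8 and Krt7 were not. Dsp was flagged for replicate 4, at 7489.7 against 6808 to 6905 (0.858). Tfcp2l1 was flagged for replicate 4, at 10349.9 against 7620.2 to 7812 (0.93). Tagln, a smooth muscle gene, was flagged for replicate 2, at 14487.5 against 6646 to 7514.5 (0.889). Pdzk1, a proximal tubule gene, was flagged for replicate 2, at 5752 against 8340.2 to 8826 (0.842). Replicate 2 was thus high for Krt18 and Tagln and low for Pdzk1.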

How the results depend on the processing

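Counts of called genes among the 6 moved by over 1.5 times under these alternatives. From E13 to E18 (3 called) the count was 5 at 2-fold and 5 by adjusted p alone. From E18 to Wk4 (1 called) it was 2 with no pseudocount, with quantile normalization, with median centring and with the embryonic array set as a covariate, 3 at 2-fold and 5 by adjusted p alone, and between 1 and 2 with an array left out. From E13 to Wk4 (3 called) it was 5 with no pseudocount, at 2-fold and by adjusted p alone. For recombined tissue against E13 (1 called) it was 0 with a pseudocount 4 times as large, 2 with no pseudocount, at 2-fold and by adjusted p alone, and between 1 and 2 with an array left out. Against E18 (2 called) it was 1 with the larger pseudocount, 5 at 2-fold and by adjusted p alone, and between 2 and 4 with an array left out. Against Wk4 (4 called) it was 2 with the larger pseudocount and between 2 and 4 with an array left out. Lower thresholds call more genes and a larger pseudocount shrinks dim genes; for the others the cause was not tested. The sign of Krt8 in recombined tissue against E13 turned with quantile normalization (-0.11), median centring (-0.19), the replicate block (-0.018), the embryonic array set as a covariate (-0.011), and without E13 replicate 1 (-0.0076), E13 replicate 3 (-0.010) or recombined replicate 2 (-0.056), and reached 0.068 without recombined replicate 1. With an array left out, Krt18 in the same comparison lay between -0.63 and 0.014, Krt14 between -0.023 and 1.03, and Upk1b from E18 to Wk4 between -0.34 and 0.14. None of these reversed differences was called. Residual correlations of arrays with the same number in E13 and E18 were 0.312, -0.172 and -0.148, without a common sign. The labels do not say whether a shared number means a shared origin. With the replicate block the counts of the 6 genes were 3, 1, 3, 1, 2 and 4, the same as without it. The block took Upk1a in recombined tissue against Wk4 (-1.50) and Lmna against E18 (1.58) under 3-fold. Median centring moved the median of all probe sets in recombined tissue against E13 to -0.20. Over all probe sets, the larger pseudocount and no pseudocount gave 188 and 1038 calls for E18 against E13 (529), 1420 and 3990 for Wk4 against E18 (2529), 495 and 1732 for recombined against E13 (1098) and 418 and 1594 against E18 (995). The larger one gave 2300 for Wk4 against E13 (4036) and 1876 for recombined against Wk4 (3435). In these 6 comparisons, in the order E18 against E13, Wk4 against E18, Wk4 against E13 and recombined against E13, E18 and Wk4, 2-fold gave 1503, 5772, 7865, 2839, 2551 and 6885 calls, and adjusted p alone 4466, 12368, 13705, 7015, 6372 and 11974. Signals of Krt7, Krt14 and Upk1b at E13 lay under the 40th percentile, which limits the size of their differences.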
